A study of Mus musculus with 2 samples.

Results

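The lysosome and TFEB network genes described here are 39 mouse genes out of 32285 in the feature tables of the series, taken by symbol from a written list of lysosomal hydrolases, proton pump subunits, autophagy genes and regulators of the transcription factor TFEB. They were read in 2 cultures of myeloid-derived suppressor cells (MDSCs), immature cells of the myeloid lineage that hold T cells in check, profiled by droplet single-cell RNA sequencing. The Selinexor culture received 50 nM Selinexor, an inhibitor of exportin 1 (the receptor that carries proteins out of the nucleus), and the DMSO culture received the vehicle. Both cultures were grown in vitro with 40 ng/mL each of recombinant mouse IL-6 and GM-CSF, tagged with feature barcodes and sorted for live CD11b+ cells at day 4, and their suspensions were pooled before capture. The comparison asks how the transcripts of this network stood when exportin 1 was inhibited, which is of interest because TFEB is one of the proteins that exportin 1 carries. No source used here states the mouse strain, the age of the animals or the tissue from which the cultures were started.

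Lysosomes are acidic compartments in which hydrolases break down proteins, glycans and lipids, and a proton-pumping ATPase keeps them acidic. TFEB and its relatives TFE3 and MITF are transcription factors that bind short E-box motifs in the promoters of lysosomal and autophagy genes. When nutrients are plentiful the kinase mTORC1, recruited through the Rag GTPases and folliculin, keeps TFEB in the cytoplasm, and exportin 1 carries TFEB out of the nucleus. Phagocytes such as neutrophils, monocytes and macrophages depend on lysosomal proteases for killing and digestion.

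Each group held 1 library, so no difference below has a replicate check, no test was possible, and every interval covers counting error only. The Selinexor library had 1967 kept cells with 12841480 UMIs (unique molecular identifiers, that is, counted molecules), and the DMSO library had 1743 kept cells with 14222344 UMIs. Selinexor cells were shallower, with a median of 3984 UMIs against 7788 in DMSO cells, and 322 Selinexor against 96 DMSO cells had under 1000 UMIs. The sorted marker Itgam, which encodes CD11b, stood at 412 CPM (counts per 1000000 UMIs) in the Selinexor library and 306 CPM in the DMSO library. Ly6c2, high on monocytic MDSCs, stood at 1120 CPM in Selinexor cells and 687 CPM in DMSO cells, and Ly6g, a granulocytic marker, had only 49 Selinexor and 97 DMSO UMIs. Summed late neutrophil markers stood at 75086 CPM in the Selinexor library and 117088 CPM in the DMSO library. Summed monocyte markers stood at 2481 CPM in the Selinexor library and 1309 CPM in the DMSO library. The markers that define T cells, NK cells, B cells and erythroid cells were at or near 0, each list summing to at most 6.82 CPM in either library. Xpo1, the gene of exportin 1, had 2568 UMIs in the Selinexor library and 944 UMIs in the DMSO library, a log2 ratio of 1.58 (1.47 to 1.68).

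Across all kept cells the network stood higher in the Selinexor library, by a small amount for most genes and by more than 2-fold for a few. The 39 genes together made up 0.892% of UMIs in Selinexor cells and 0.627% in DMSO cells. Psap, the precursor of the saposins that help enzymes degrade sphingolipids, and Ctsd, the aspartic protease cathepsin D, accounted for most of that gap. Without that pair the remaining 37 genes made up 0.558% of UMIs in Selinexor cells and 0.487% in DMSO cells. Each ratio below is the Selinexor value of log2(CPM + 1) less the DMSO value. The added 1 CPM pulls the ratios of sparsely counted genes towards 0. A gene is called higher or lower at a 1.5-fold ratio on that scale. All 39 genes passed the minimum of 50 UMIs over both libraries, the lowest with 60.

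Of the 39 genes, 6 (15.4%) were called higher, against 9.83% of the 10393 genes measured, and 0 were called lower, against 3.88% of the same genes. The 6 were Rragd, Atp6v0d2, Ctsd, Psap, Gabarapl1 and Wipi1. The median log2 ratio of the 39 was 0.38 (median bounds 0.23 to 0.54), beside 0.13 for the 10393 genes, and 33 of the 39 lay above that 0.13. Counting intervals lay wholly above 0 for 33 members and wholly below 0 for Ctsz and Atp6v0c. The share of the 10393 genes with such intervals was not counted, so the 33 is not a result about the network. Scaling by TMM or by the median of ratios moved the median of the 10393 genes by -0.12 and -0.14. Under either scaling 5 members were higher and 0 lower, with Wipi1 no longer called. Of the 10393 genes, 6.0% were higher and 6.23% lower under TMM, and 5.75% and 6.47% under the median of ratios. Relative to the all-gene median, 5 members stood at least 1.5-fold above it and 0 at least 1.5-fold below it. Such a count was not made for all 10393 genes, so the 5 and 0 are not a result about the network. In summed libraries of this kind, fewer cells of a type and less of its RNA per cell cannot be told apart.

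**Figure D1:**
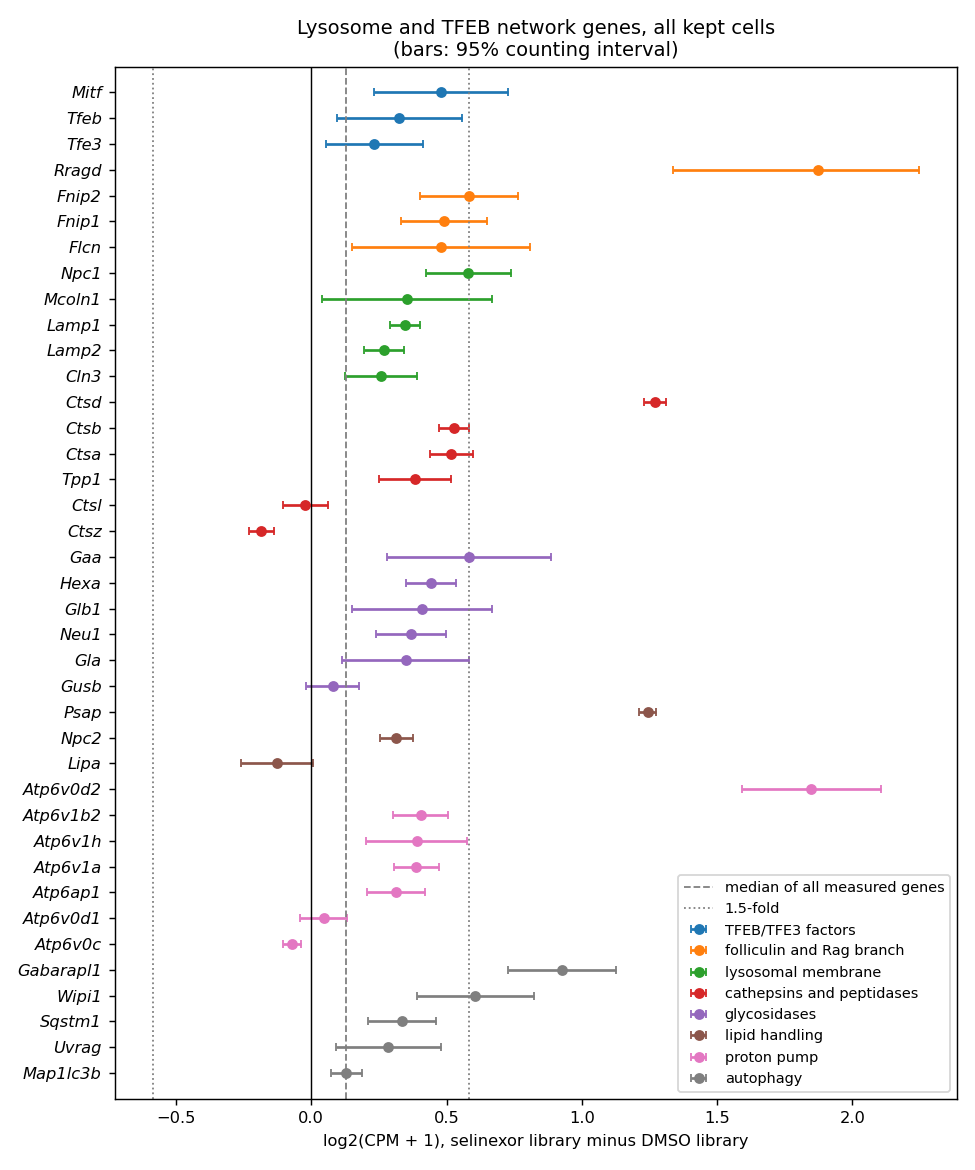
Difference in log2(CPM + 1), Selinexor minus DMSO, for the 39 genes over all kept cells, coloured and grouped by role, with bars for the 95% counting interval. The dashed line is the median of all measured genes (0.13) and the dotted lines are 1.5-fold. Rragd, Atp6v0d2, Ctsd, Psap, Gabarapl1 and Wipi1 lie past the right dotted line, and Ctsl, Ctsz, Lipa and Atp6v0c lie left of 0.

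The 3 transcription factors themselves were not called. Tfeb (mm10 chr17:47737030-47792419, plus strand) had 303 UMIs, or 23.6 CPM, in the Selinexor library and 265 UMIs, or 18.6 CPM, in the DMSO library, a log2 ratio of 0.33 (0.09 to 0.56). Tfe3, its X-linked relative, had 498 Selinexor and 467 DMSO UMIs, a log2 ratio of 0.23. Mitf, best known as the regulator of melanocyte and osteoclast genes, had 277 Selinexor and 216 DMSO UMIs, a log2 ratio of 0.48. All 3 values were above 0 and none reached 1.5-fold. The Tfeb ratio moved with how cells were counted: it was 0.73 with every cell given equal weight and 1.15 after thinning each cell to 1000 UMIs. Transcript levels do not say where in the cell the protein is.

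The folliculin and Rag branch, which reports amino acid supply to mTORC1 and gates its action on TFEB, had a median log2 ratio of 0.54, and 1 of its 4 members was called. Rragd encodes RagD, one of the GTPases that bring TFEB to the lysosome, and lies at mm10 chr4:32983037-33022180 on the plus strand. It had 54 UMIs, or 4.21 CPM, in the Selinexor library and 6 UMIs, or 0.42 CPM, in the DMSO library, and its log2 ratio of 1.87 (1.34 to 2.25) was the largest of the 39. Its UMIs came from 45 Selinexor and 6 DMSO cells. Because its counts are so low the size depends on the pseudocount, with 3.04 at 0.1 CPM and 0.76 at 5 CPM. Fnip2, a folliculin partner, had 573 Selinexor and 419 DMSO UMIs, a log2 ratio of 0.58 just short of the 1.5-fold limit. Its relative Fnip1 had 710 Selinexor and 556 DMSO UMIs, a log2 ratio of 0.49. Flcn, which encodes folliculin, had 146 Selinexor and 112 DMSO UMIs, a log2 ratio of 0.48. The 4 genes of the branch thus all stood above the all-gene median of 0.13, with Rragd apart from the rest.

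None of the 5 genes of the lysosomal membrane was called, and all 5 lay above 0. Lamp1 and Lamp2 encode the abundant glycoproteins that line the lysosome. Lamp1 had 5552 UMIs, or 432 CPM, in Selinexor cells and 4833 UMIs, or 339.8 CPM, in DMSO cells, a log2 ratio of 0.35. Lamp2 had 3110 Selinexor and 2854 DMSO UMIs, a log2 ratio of 0.27. Npc1, which exports cholesterol from the lysosome, was the nearest to the limit with 760 Selinexor and 558 DMSO UMIs and a log2 ratio of 0.58. Mcoln1, a lysosomal calcium channel, and Cln3, the gene mutated in juvenile Batten disease, stood at 0.35 and 0.26. Only Mcoln1 had few counts, with 156 Selinexor and 132 DMSO UMIs.

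Among the 6 cathepsin and peptidase genes, Ctsd stood apart and the cysteine cathepsins did not share a direction. Ctsd (mm10 chr7:142375911-142388038, minus strand) had 16393 UMIs, or 1277 CPM, in the Selinexor library and 7516 UMIs, or 528 CPM, in the DMSO library, a log2 ratio of 1.27 (1.23 to 1.31). Across the alternatives run it stayed between 1.02 and 1.30, always past 1.5-fold. Ctsb, cathepsin B, had 6012 Selinexor and 4613 DMSO UMIs and a log2 ratio of 0.53. Ctsa, the carboxypeptidase that also protects neuraminidase and beta-galactosidase, stood at 0.52, and Tpp1, a tripeptidyl peptidase, at 0.38. The other pair lay below 0. Ctsz, cathepsin Z, had 6566 UMIs, or 511 CPM, in Selinexor cells and 8261 UMIs, or 581 CPM, in DMSO cells, a log2 ratio of -0.18 (-0.23 to -0.14). Ctsl, cathepsin L, had 2140 Selinexor and 2405 DMSO UMIs and a ratio of -0.02 with an interval that includes 0 (-0.11 to 0.06).

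No glycosidase was called. The 6 enzymes, which remove sugars from glycogen, glycolipids and glycoproteins, had a median log2 ratio of 0.39. Gaa, the glycogen-degrading acid alpha-glucosidase, had the highest with 185 Selinexor and 132 DMSO UMIs and a ratio of 0.58. Hexa, the alpha subunit of beta-hexosaminidase, stood at 0.44 on 2026 Selinexor and 1647 DMSO UMIs. Glb1 (beta-galactosidase), Neu1 (a sialidase) and Gla (alpha-galactosidase A) stood at 0.41, 0.37 and 0.35. Gusb, the beta-glucuronidase, stood lowest at 0.08 on 1630 Selinexor and 1708 DMSO UMIs, and both other scalings put it below 0.

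Of the 3 genes of lysosomal lipid handling, Psap was called and the sterol carrier Npc2 and the acid lipase Lipa were not. Psap (mm10 chr10:60277627-60302597, plus strand) had 26488 UMIs, or 2063 CPM, in the Selinexor library and 12389 UMIs, or 871 CPM, in the DMSO library. Its log2 ratio was 1.24 (1.21 to 1.27). Weighting the clusters described below to the same cell mix in both libraries brought it to 0.50, under the limit. That mix used the 10 of 14 clusters with at least 20 cells of each library, and its cluster 2 rests on 22 DMSO cells and its cluster 5 on 26 Selinexor cells. Npc2 had 4492 Selinexor and 3999 DMSO UMIs and a ratio of 0.31. Lipa, which frees cholesterol from its esters, had 811 Selinexor and 982 DMSO UMIs and a ratio of -0.13 (-0.26 to 0.01). With the same cell mix Lipa was called lower, at -0.71.

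The proton pump genes split between a rarely used isoform and the common subunits. Atp6v0d2 encodes an isoform of the membrane-sector d subunit known from osteoclasts and some macrophages, and lies at mm10 chr4:19876841-19922605 on the minus strand. It had 485 UMIs, or 37.8 CPM, in the Selinexor library and 139 UMIs, or 9.77 CPM, in the DMSO library, a log2 ratio of 1.85 (1.59 to 2.11). That value depended on the cell mix: it was -0.0097 once both libraries were given the same cell mix, and 0.47 when clusters of very unequal share were left out. Atp6v0d1, the widely expressed d subunit, had 2021 Selinexor and 2168 DMSO UMIs and a ratio of 0.05, below 0 under both other scalings. The catalytic Atp6v1a, the cytosolic-sector genes Atp6v1b2 and Atp6v1h and the accessory Atp6ap1 stood between 0.31 and 0.40. Atp6v0c, the proton-carrying ring subunit, had 13335 Selinexor and 15501 DMSO UMIs and a ratio of -0.07 (-0.10 to -0.04).

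Of the 5 autophagy genes, 2 were called. Gabarapl1, a relative of LC3 that decorates autophagosomes, had 526 UMIs, or 40.96 CPM, in the Selinexor library and 300 UMIs, or 21.1 CPM, in the DMSO library, a log2 ratio of 0.93 (0.73 to 1.13). It lies at mm10 chr6:129533160-129542346 on the plus strand. Thinning brought Gabarapl1 to 0.50 and the same cell mix to 0.31. Wipi1, a lipid-binding protein of the early autophagosome, lies at mm10 chr11:109573331-109611967 on the minus strand. It had 390 Selinexor and 279 DMSO UMIs, a log2 ratio of 0.61 (0.39 to 0.82) just past the limit. The call of Wipi1 was lost under both other scalings, with cells weighted equally (0.32), after thinning (0.19) and with the same cell mix (0.22). Sqstm1, the cargo receptor known as sequestosome, stood at 0.34 and Uvrag, a regulator of autophagosome maturation, at 0.28. Map1lc3b, the LC3 gene most used as an autophagosome marker, stood at 0.13 on 4863 Selinexor and 4920 DMSO UMIs, and just below 0 under both other scalings.

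Promoter windows were read for the members because TFEB and its relatives bind the E-box CACGTG and in lysosomal genes often the longer TCACGTGA. The windows are RefSeq sequences of build GRCm38.p6 from 250 bases before to 50 bases after an annotated start, and 34 of the 39 members have at least 1. CACGTG, which reads the same on both strands, occurs in a window of 12 of the 34 members (35.3%), in 12.5% of the measured genes with a window and in 7.15% of all 32851 windows. TCACGTG, searched on both strands, contains CACGTG and occurs in 11 members (32.4%), in 7.55% of the measured genes with a window and in 3.77% of all windows. The palindrome TCACGTGA occurs in 7 members (Mcoln1, Cln3, Ctsa, Ctsd, Gla, Atp6v0d1 and Atp6v1a), 20.6% of the 34, in 2.45% of the measured genes with a window and in 0.974% of all windows. The members were picked as lysosome and TFEB network genes, a kind whose promoters are already known to hold such E-boxes. Their higher shares can follow from that choice, so they are not a result about the cultures. The stretches below are the 250 bases before the start, chosen because GENCODE places at most 2 exon bases in each. The first 3 hold the E-box (capitals) and the last 2 belong to genes called higher whose windows hold none. Lamp1 (chr8:13158911-13159160, plus strand) is shown for its 4 copies, which start 61, 45, 28 and 15 bases before the start. Fnip1 (chr11:54437929-54438178, plus strand) and Glb1 (chr9:114400828-114401077, plus strand) have 1 copy each, 75 and 48 bases before the start. Rragd (chr4:32982748-32982997, plus strand) and Psap (chr10:60277378-60277627, plus strand) follow.
Lamp1: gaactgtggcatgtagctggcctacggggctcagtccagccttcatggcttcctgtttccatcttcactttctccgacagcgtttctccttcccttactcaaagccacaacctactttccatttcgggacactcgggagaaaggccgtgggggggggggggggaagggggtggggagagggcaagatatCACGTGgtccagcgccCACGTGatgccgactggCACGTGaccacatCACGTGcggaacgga
Fnip1: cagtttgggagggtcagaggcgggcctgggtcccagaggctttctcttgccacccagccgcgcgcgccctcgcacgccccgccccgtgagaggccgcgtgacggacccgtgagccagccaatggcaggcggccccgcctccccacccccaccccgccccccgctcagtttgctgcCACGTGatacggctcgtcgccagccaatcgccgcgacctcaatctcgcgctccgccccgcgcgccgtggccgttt
Glb1: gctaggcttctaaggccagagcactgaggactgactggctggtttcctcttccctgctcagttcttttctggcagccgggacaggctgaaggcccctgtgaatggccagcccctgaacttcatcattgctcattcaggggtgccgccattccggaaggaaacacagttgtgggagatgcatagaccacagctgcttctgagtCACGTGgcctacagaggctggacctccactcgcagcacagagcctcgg
Rragd: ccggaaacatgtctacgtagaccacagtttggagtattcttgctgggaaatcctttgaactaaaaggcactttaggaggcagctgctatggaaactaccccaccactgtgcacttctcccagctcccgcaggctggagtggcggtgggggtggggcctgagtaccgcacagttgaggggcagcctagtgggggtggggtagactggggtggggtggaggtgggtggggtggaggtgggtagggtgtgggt
Psap: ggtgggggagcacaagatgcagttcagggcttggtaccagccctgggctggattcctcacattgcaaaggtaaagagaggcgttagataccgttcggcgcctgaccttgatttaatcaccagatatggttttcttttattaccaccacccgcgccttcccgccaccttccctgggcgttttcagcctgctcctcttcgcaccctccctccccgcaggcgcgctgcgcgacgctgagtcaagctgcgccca

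Members with and without these letters had similar ratios. The 12 members with CACGTG had a median log2 ratio of 0.37, and 1 of them, Ctsd, was called higher. The 22 members with a window but no CACGTG had a median of 0.33, and 4 of them were called higher. Lamp1, with its 4 copies, stood at 0.35. A match describes the letters of a window and not a site in use, and a window without a match says nothing about more distant sequence.

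To see where in the cultures these transcripts lay, the cells of both libraries were clustered together with the 39 genes and the wider lysosomal lists left out, which gave 14 clusters. Clusters were named by their marker genes. The early neutrophil-like cluster 8, marked by the primary granule genes Mpo and Elane, held 60 Selinexor and 116 DMSO cells. Intermediate neutrophil-like clusters 6 and 10, marked by the secondary granule genes Ltf, Camp and Ngp, held 185 Selinexor and 197 DMSO cells. Late neutrophil-like clusters 0, 1 and 5, marked by Cxcr2, Mmp9 and Il1r2, held 930 Selinexor and 746 DMSO cells. Of the 9 late markers, 4 were at least 2-fold higher in cluster 0 than in the other cells, 7 in cluster 1 and 6 in cluster 5. Summed late neutrophil markers were lower in this late class than in the intermediate class, at 115295 against 259405 CPM in Selinexor cells. In DMSO cells they stood at 183161 against 276238 CPM. In the early class they stood at 188196 CPM in Selinexor cells, above the late class, and at 173859 CPM in DMSO cells, below it. At a clustering resolution of 0.6 no cluster received the late name. At 1.4 a low-UMI cluster of 598 Selinexor and 59 DMSO cells, sharing leading genes with cluster 0, was left unnamed. Cluster 4, led by cell division genes and left unnamed, held 115 Selinexor and 176 DMSO cells. A macrophage-like cluster 9, in which dendritic cell markers summed to more than macrophage markers, held 47 Selinexor and 109 DMSO cells. The unnamed cluster 11, whose median cell had 1147 UMIs in the Selinexor library and 1453 UMIs in the DMSO library and whose leading genes include chemokines, held 86 Selinexor and 46 DMSO cells. Several clusters belonged almost to 1 library: the monocyte-like cluster 2 held 318 Selinexor and 22 DMSO cells, the unnamed cluster 7 held 181 Selinexor and 15 DMSO cells, and the unnamed cluster 3 held 8 Selinexor and 302 DMSO cells. Such a cluster cannot be told apart from its library.

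The summed share of the network varied several-fold across clusters. In clusters with at least 50 cells of a library, it was lowest in early and intermediate neutrophil-like cells. There it was 0.371% of UMIs in Selinexor cells and 0.325% in DMSO cells of cluster 8, 0.406% in Selinexor and 0.348% in DMSO cells of cluster 6, and 0.404% in Selinexor and 0.321% in DMSO cells of cluster 10. Late neutrophil-like cells had more, 0.905% in Selinexor and 0.704% in DMSO cells of cluster 0, and 0.807% in Selinexor and 0.565% in DMSO cells of cluster 1. The cycling cluster 4 had 0.971% in Selinexor and 0.640% in DMSO cells. In every cluster with enough cells of both libraries (0, 1, 4, 6, 8 and 10) the Selinexor share was thus the higher, though not for every role. In cluster 8 the TFEB factors held 0.0021% in Selinexor and 0.0033% in DMSO cells, and the membrane genes 0.0391% and 0.0422%. There Psap stood at 343 and 123 CPM and Ctsd at 334 and 201 CPM. Selinexor cells also held less of the TFEB factors and autophagy genes in cluster 6, the proton pump genes in cluster 4 and the autophagy genes in cluster 10. Among clusters with at least 40 cells of a library, cluster 11 had the highest share in both libraries, 1.74% in its 86 Selinexor cells and 1.51% in its 46 DMSO cells, the DMSO cells being under the minimum of 50. Selinexor cells of cluster 2 had 1.19% and of cluster 7 1.01%. DMSO cells of the macrophage-like cluster 9 had 0.757% and of cluster 3 0.828%.

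**Figure D2:**
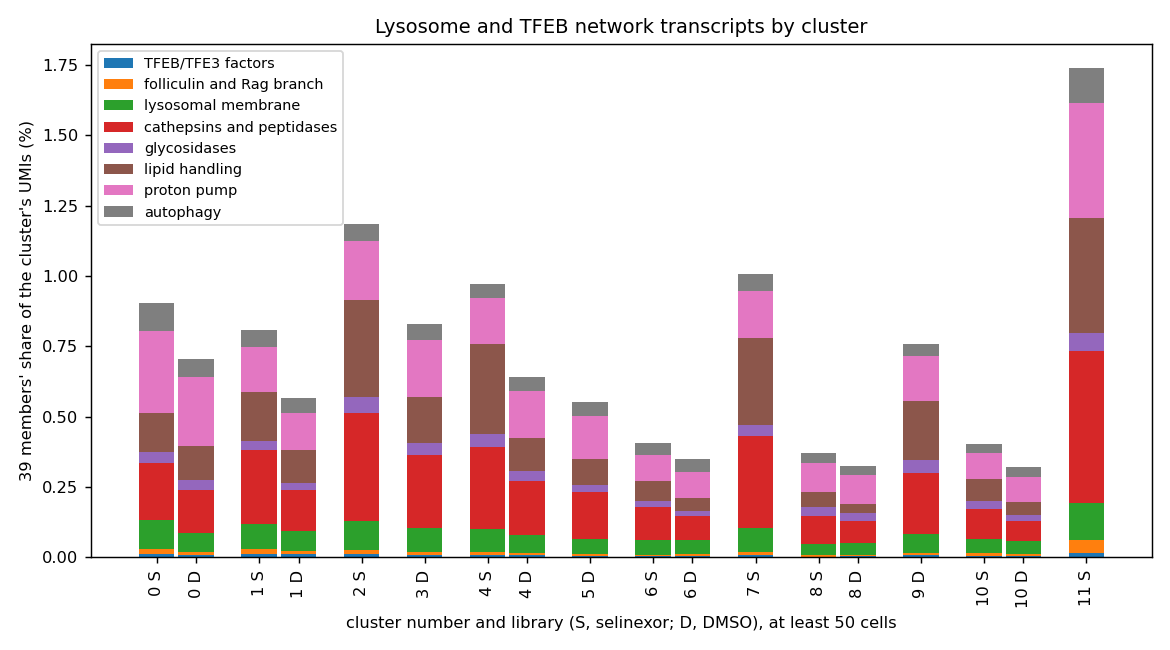
Share of each cluster's UMIs held by the 39 genes, stacked by role, for Selinexor (S) and DMSO (D) cells of clusters with at least 50 cells of that library. Clusters 6, 8 and 10, the intermediate and early neutrophil-like ones, have the lowest bars (0.321% to 0.406%), and cluster 11 of the Selinexor library has the highest (1.74%). The 46 DMSO cells of cluster 11 (1.51%) are too few to be drawn.

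Cluster 11 held the highest point value of more than 20 members in each library when clusters with at least 40 cells of a library were read. That minimum was chosen after the data were seen. In Selinexor cells 24 of the 39 genes peaked there and in DMSO cells 21, and 18 of them peaked there in both. The interval of the peak lay above that of the next cluster for 8 of the 24 and for 11 of the 21, so the order is unresolved for the others. The levels of cluster 11 rest on only 129488 Selinexor and 122158 DMSO UMIs. Its DMSO peaks of Mcoln1, Flcn, Gaa and Rragd rest on 2 or 3 UMIs each. How many of all genes peak in this cluster was not counted, so the 24 and 21 are not a result about the network. The next most frequent cluster was the monocyte-like cluster 2 in Selinexor cells, with 7 genes, and the macrophage-like cluster 9 in DMSO cells, with 9. Atp6v0d2 UMIs of the Selinexor library lay mainly in 1 cluster. Cluster 2 held 364 of its Selinexor UMIs, 75.1%, at 95.6 CPM (86.0 to 105.9), while Selinexor cells of cluster 8 had 1.11 CPM. In cluster 0 the order of the libraries was the opposite, with 5 Selinexor UMIs (6.98 CPM) and 21 DMSO UMIs (26.9 CPM). Per UMI its level was highest in cluster 11, at 139 CPM (82.4 to 219.7) on 18 Selinexor UMIs and 106 CPM on 13 DMSO UMIs. The Selinexor interval overlaps that of cluster 2, so the order of clusters 11 and 2 in Selinexor cells is unresolved. Atp6v0d2 is itself a leading gene of cluster 2, although it was left out of the clustering. Psap and Ctsd were broader: cluster 2 held 41.4% of the Selinexor UMIs of Psap and 41.0% of those of Ctsd. Psap stood at 2878 CPM in Selinexor cells of cluster 2, 2777 CPM in those of cluster 4 and 2698 CPM in those of cluster 7, against 343 CPM in those of cluster 8. In DMSO cells Psap stood at 3299 CPM in cluster 11, 1663 CPM in the macrophage-like cluster 9 and 123 CPM in cluster 8. Ctsz was highest in DMSO cells of clusters 3 and 9, at 876 and 792 CPM.

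**Figure D3:**
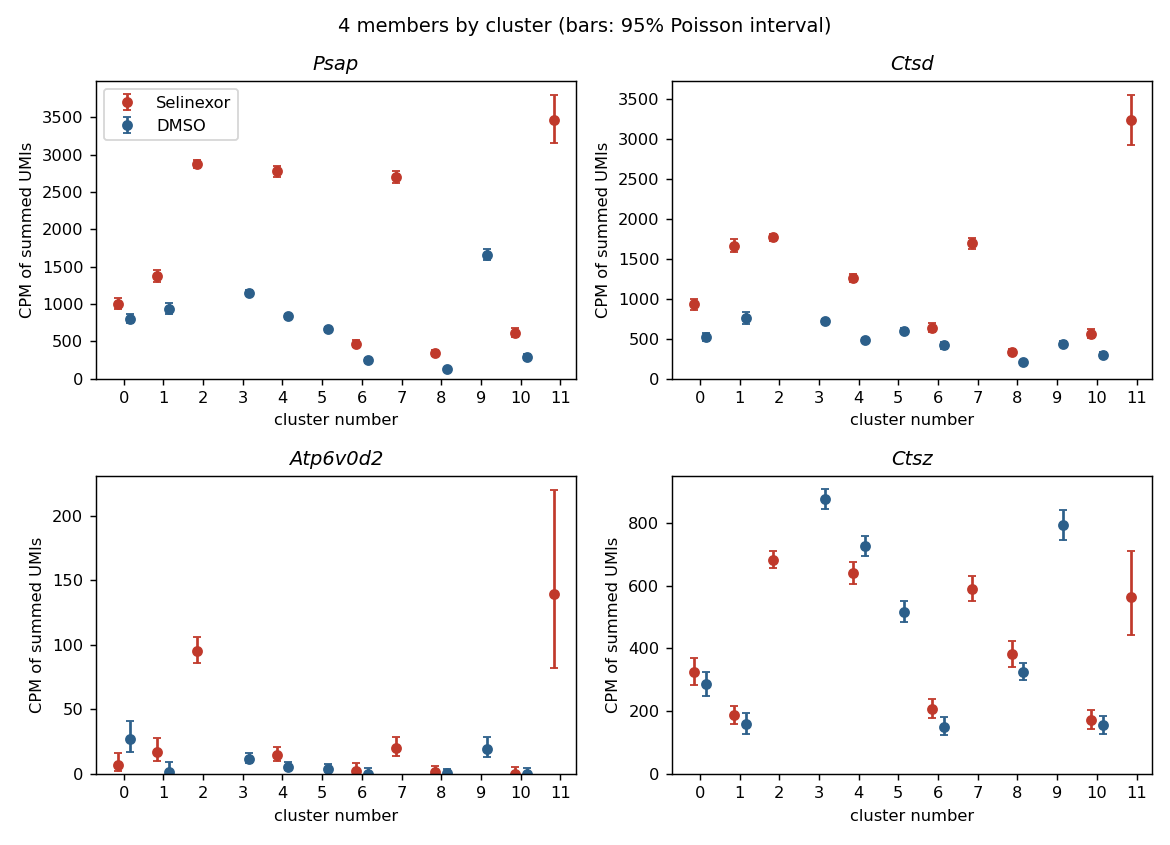
CPM of summed UMIs for Psap, Ctsd, Atp6v0d2 and Ctsz by cluster, Selinexor cells in red and DMSO cells in blue, with 95% Poisson intervals, for clusters with at least 50 cells of that library. Red lies above blue for Psap and Ctsd wherever both are drawn, Atp6v0d2 is high in clusters 2 and 11 of the Selinexor library (DMSO cells of both are too few to be drawn), and Ctsz is highest in DMSO cells of cluster 3.

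Within cell classes the libraries can be compared with less influence of the cell mix. Genes with at least 30 UMIs in a class over both libraries were read. In early neutrophil-like cells 31 members were measured, 6 were higher against 7.07% of all measured genes, and 0 were lower against 10.9%, with a median of 0.00 beside -0.08 for all genes. Intermediate neutrophil-like cells had 32 measured, 4 higher against 7.84%, 0 lower against 7.26%, and a median of 0.10 beside -0.02. Late neutrophil-like cells had 38 measured, 16 higher against 27.8% and 1 lower against 13.3%, and a median of 0.51 beside 0.22. Cluster 4 had 38 measured, 10 higher against 15.2%, 0 lower against 5.64%, and a median of 0.39 beside 0.15. Under TMM scaling within cluster 4 the count was 5 higher (Ctsd, Glb1, Psap, Atp6v0d2 and Gabarapl1) against 9.5% of all genes and 0 lower against 9.41%. Of these 4 classes, late neutrophil-like cells and cluster 4 had the most members higher, and they were also the pair in which the largest share of all genes was called higher. Macrophage-like cells and cluster 11, read at a minimum of 40 cells chosen after the data were seen, had 34 and 25 measured. Macrophage-like cells had 2 members higher against 9.56% and 4 lower against 13.1%, and cluster 11 had 5 higher against 20.3% and 2 lower against 14.5%.

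**Figure D4:**
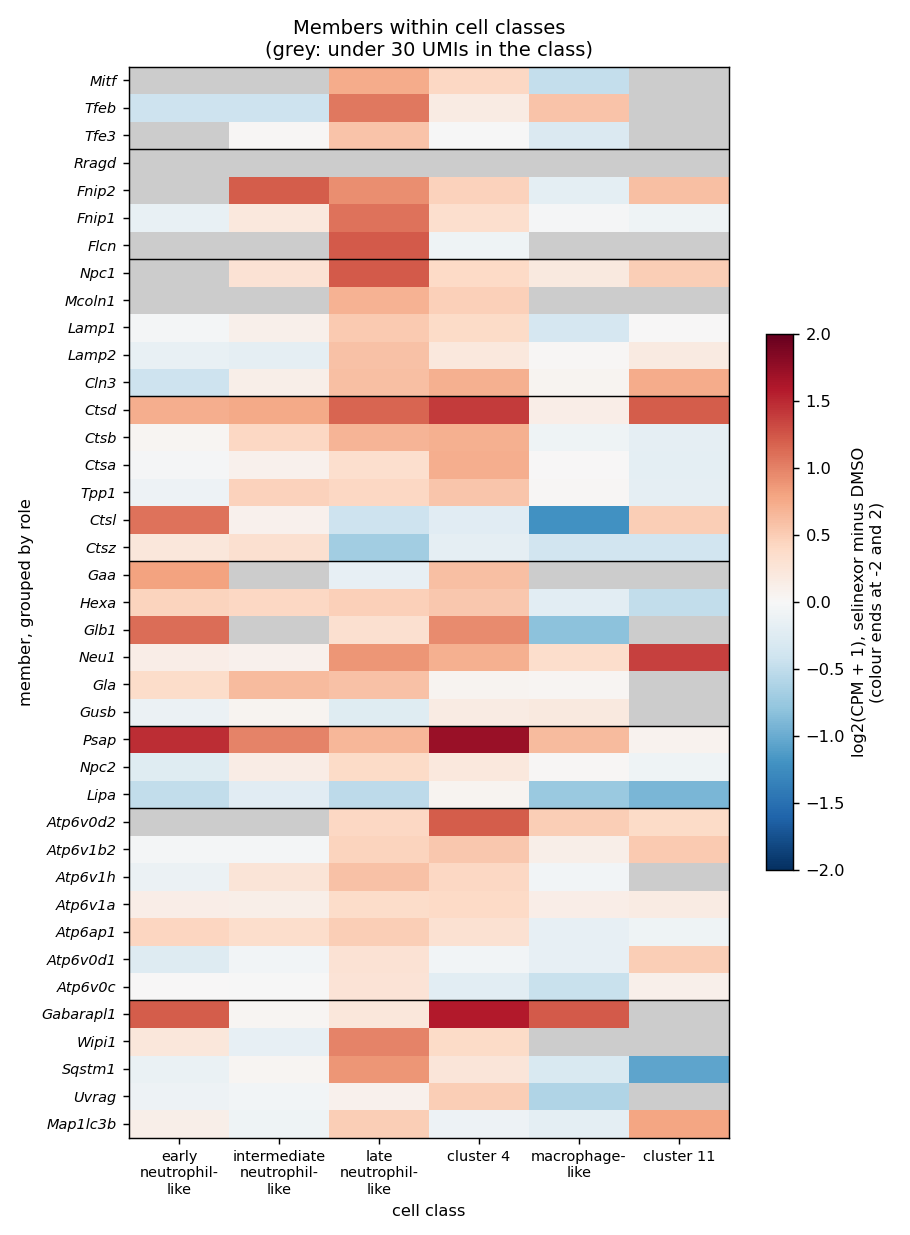
Log2(CPM + 1), Selinexor minus DMSO, for each of the 39 genes within 6 cell classes, red where the Selinexor cells were higher and blue where they were lower. Grey marks genes with under 30 UMIs in the class. Psap and Ctsd are red in all 6 columns, the late neutrophil-like column is red for most genes, and Lipa and Ctsz are blue in most columns.

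Psap and Ctsd were called higher in all 4 classes compared at 50 cells, although under TMM scaling within the class Psap stood at 0.40 in late neutrophil-like cells and was not called there. In early neutrophil-like cells Psap had 309 UMIs, or 343 CPM, in Selinexor cells and 199 UMIs, or 123 CPM, in DMSO cells, a log2 ratio of 1.48 (1.22 to 1.74). It stood at 1.00 in intermediate and 0.66 in late neutrophil-like cells and at 1.73 (1.66 to 1.80) in cluster 4. Ctsd stood at 0.73, 0.76, 1.16 and 1.39 in the same classes, with 2425 Selinexor and 2043 DMSO UMIs in late neutrophil-like cells. In macrophage-like cells Psap was higher at 0.63 and Ctsd was not called, at 0.14 (-0.08 to 0.34). In cluster 11 Ctsd was higher at 1.21 and Psap was not, at 0.07. Monocyte markers moved in the same direction in 3 of these classes. They summed to 3457 CPM in Selinexor and 1545 CPM in DMSO cells of the early class, 2119 CPM in Selinexor and 1386 CPM in DMSO cells of the intermediate class, and 2977 CPM in Selinexor and 1306 CPM in DMSO cells of cluster 4. In late neutrophil-like cells they summed to 770 CPM in Selinexor and 840 CPM in DMSO cells. Neutrophil markers differed as well. Late neutrophil markers summed to 115295 CPM in Selinexor and 183161 CPM in DMSO cells of the late class, and to 26128 CPM in Selinexor and 66567 CPM in DMSO cells of cluster 4. Intermediate neutrophil markers summed to 24228 CPM in Selinexor and 15003 CPM in DMSO cells of the late class. In the early class its own early neutrophil markers summed to 6726 CPM in Selinexor and 10806 CPM in DMSO cells. Late neutrophil markers in cluster 11 summed to 36683 CPM in Selinexor and 104586 CPM in DMSO cells. The part of these differences in the members' ratios was not tested.

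In late neutrophil-like cells, where 27.8% of all measured genes were called higher, 5 of the 6 measured genes of the TFEB factors and the folliculin branch were called higher, and 4 under TMM scaling within the class, without Mitf. Flcn was at 1.23 on 31 Selinexor and 23 DMSO UMIs, Fnip1 at 1.08 on 141 Selinexor and 124 DMSO UMIs, and Fnip2 at 0.93 on 110 Selinexor and 107 DMSO UMIs. In intermediate neutrophil-like cells Fnip2 was called too, at 1.21 on 28 Selinexor and 11 DMSO UMIs, of which cluster 10 held 18 Selinexor and 2 DMSO UMIs and cluster 6 held 10 Selinexor and 9 DMSO UMIs. In late neutrophil-like cells Tfeb had 71 UMIs, or 39.9 CPM, in Selinexor cells and 63 UMIs, or 18.8 CPM, in DMSO cells, a log2 ratio of 1.05 (0.56 to 1.54). Mitf was called as well, at 0.74 (0.14 to 1.34), and Tfe3, at 0.56, was not. Rragd, the seventh gene, had 14 Selinexor and 0 DMSO UMIs in late cells, too few to be counted as measured, and it was measured in none of the 6 classes. In early and intermediate neutrophil-like cells Tfeb stood at -0.42 and -0.41, with intervals that include 0. Npc1 (1.22), Wipi1 (0.99), Sqstm1 (0.89), Neu1 (0.88), Mcoln1 (0.69), Ctsb (0.68), Cln3 (0.60), Atp6v1h (0.59) and Lamp2 (0.59) completed the 16 members higher in the class with Psap and Ctsd. Mcoln1, Ctsb, Cln3, Atp6v1h and Lamp2 were not called under TMM scaling within the class, nor was Psap.

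Depth and cluster make-up differed between the libraries within the late class. Its median cell had 1201.5 UMIs in the Selinexor library and 3505 UMIs in the DMSO library, and cluster 5 held 26 Selinexor and 261 DMSO cells. TMM scaling within the class brought the count to 9 higher against 15.5% of all measured genes and 3 lower against 21.4%, and the median to 0.25. In cluster 0 on its own 12 of 32 measured members were higher against 21% of all genes, and 1 lower against 10.1%. In cluster 1 on its own 8 of 31 were higher against 16.6%, and 1 lower against 8.3%. Tfeb stood at 0.91 in cluster 0 and 0.74 (-0.22 to 1.77) in cluster 1, and Fnip2 at 0.72 in cluster 0 and 0.70 (-0.03 to 1.48) in cluster 1. Fnip1 stood at 0.83 in cluster 0 and was not called in cluster 1, at 0.35 (-0.19 to 0.91). Flcn had under 30 UMIs in either cluster, and Mitf in cluster 1. Ctsd stayed past 1.5-fold in both, at 0.84 in cluster 0 and 1.14 in cluster 1, and Psap did not, at 0.32 and 0.55. Ctsz, the member called lower in the class at -0.69, stood above 0 in each of these clusters, at 0.18 in cluster 0 and 0.24 in cluster 1.

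Other members were called in some classes and not in others. Gabarapl1 was higher in early neutrophil-like cells (1.21 on 32 Selinexor and 24 DMSO UMIs), cluster 4 (1.58 on 83 Selinexor and 35 DMSO UMIs) and macrophage-like cells (1.23 on 53 Selinexor and 52 DMSO UMIs). Gabarapl1 was not called in intermediate or late neutrophil-like cells, at 0.04 and 0.22. Glb1 was higher in early cells (1.12 on 18 Selinexor and 14 DMSO UMIs) and in cluster 4 (0.95), and Gaa in early cells (0.80) with an interval that includes 0 (-0.11 to 1.70). Ctsl was higher in early cells at 1.09 (0.35 to 1.84) on 33 Selinexor and 27 DMSO UMIs, and lower in macrophage-like cells at -1.21 (-1.68 to -0.76) on 48 Selinexor and 260 DMSO UMIs. Lipa was lower in macrophage-like cells (-0.74) and cluster 11 (-0.91), and Glb1 (-0.82) and Uvrag (-0.60) were the other members lower in macrophage-like cells. Sqstm1 was lower in cluster 11, at -1.05 on 43 Selinexor and 84 DMSO UMIs, where Neu1 (1.36), Map1lc3b (0.79), Cln3 (0.75) and Fnip2 (0.60) were higher beside Ctsd. In intermediate cells Gla was the member called beside Ctsd, Psap and Fnip2, at 0.64 on 23 Selinexor and 14 DMSO UMIs with an interval that includes 0 (-0.30 to 1.60). Atp6v0d2 was higher in cluster 4, at 1.22 on 29 Selinexor and 15 DMSO UMIs, and stood at 0.41 in late neutrophil-like cells. In cluster 4 Ctsa, Ctsb, Cln3, Neu1 and Gaa lay between 0.61 and 0.72, and none of these 5 was called under TMM scaling. The interval of Gaa there includes 0 (-0.13 to 1.35). Within macrophage-like cells the macrophage markers themselves summed to 458 CPM in Selinexor and 1846 CPM in DMSO cells, and the part of this difference in the ratios was not tested. Hexa stood between 0.42 and 0.55 in the 4 classes without a call in any, and Lamp1 between -0.04 and 0.52.

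A wider set of 134 genes of the same compartments, none of them among the 39, was read in the same way. Of the 132 measured, 18 were higher and 3 lower, and the median log2 ratio was 0.23. Against the 9.83% and 3.88% of all measured genes called higher and lower, the shares in these lists were 13.6% and 2.27%. Under TMM scaling 9 (6.82%) were higher against 6.0% of all measured genes, and 5 (3.79%) were lower against 6.23%. With the same cell mix 6 (4.55%) were higher against 8.99% of all, and 3 (2.27%) lower against 6.48%, so the share higher was near that of all genes in one setting and below it in the other. Other lysosomal hydrolases had 7 of 35 higher and 0 lower. Among them were the cathepsins Ctsk (57 Selinexor and 15 DMSO UMIs) and Ctsf (42 Selinexor and 9 DMSO UMIs), the asparaginyl protease Lgmn (0.87) and the acid phosphatase Acp5 (0.84). With the same cell mix Acp5 stayed past 1.5-fold at 0.83, and Ctsf stood at 0.43, Ctsk at 0.07 and Lgmn at -0.14. Other membrane genes had 4 of 21 higher and 2 lower. Gpnmb, a glycoprotein of phagocytes, had 895 UMIs in the Selinexor library and 309 UMIs in the DMSO library, a log2 ratio of 1.64, or 0.34 with the same cell mix. Laptm5, of the lysosomes of blood cells, stood at 0.79. Cd68, a macrophage glycoprotein of late endosomes, had 1137 Selinexor and 2418 DMSO UMIs and was lower at -0.93, and the phagosomal metal transporter Slc11a1 was lower at -1.10 on 67 Selinexor and 175 DMSO UMIs.

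The remaining lists held fewer calls. None of the 11 other proton pump subunits was called, and their median was 0.12, beside 0.13 for all measured genes. Of 21 other autophagy genes 3 were higher, Calcoco1 (0.98), the initiating kinase Ulk1 (0.95) and Vps11 (0.66), a tethering subunit that is required for fusion with the lysosome. All 3 stayed past 1.5-fold with the same cell mix, Calcoco1 at 1.59, Ulk1 at 1.01 and Vps11 at 0.62, and Vps11 was not called under TMM scaling (0.54). The mTORC1 and Rag machinery had 2 of 23 higher, the GATOR subunit Wdr24 (0.66) and the arginine sensor Castor1 (0.64 on 34 Selinexor and 19 DMSO UMIs), and neither was called under TMM scaling. Sorting genes had Gga2 (0.66) and the sortilin gene Sort1 (0.63) higher and Gnptg (-0.60), which helps mark enzymes for the lysosome, lower. Under TMM scaling neither Gga2 (0.53) nor Sort1 (0.50) was called, and with the same cell mix Gga2 stood at -0.43, Sort1 at 0.38 and Gnptg at -0.59. Of 9 genes for the phosphatase and 14-3-3 proteins that act on TFEB, none was called.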

How the data were processed

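Single-cell RNA sequencing was deposited for 2 cultures, and each culture is 1 library. The authors deposited raw UMI counts for every gene in every cell. Cell Ranger 6.1.2 and build mm10 are named in the submitters' processing notes. The annotation release is not given in the sources used here. Cells were kept if they had 200 or more genes and mitochondrial UMIs under 10% (1967 Selinexor and 1743 DMSO of 1989 and 1784 barcodes), and 0 barcodes occurred in both libraries. Every Selinexor barcode had CMO306 and every DMSO barcode CMO305 as its leading tag. No doublet caller was run, and an alternative left out the 4% of cells with most UMIs.

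Counts were summed per library or class and scaled to CPM. Ratios are differences of log2(CPM + 1) with exact conditional binomial 95% intervals, and levels have Poisson intervals. Genes needed 50 UMIs over both libraries, or 30 within a class, and a call needed a 1.5-fold ratio. PCR and capture make intervals cover counting error only. Cells were clustered jointly with scanpy 1.11.5 and leidenalg 0.10.2 (2000 variable genes, 30 principal components, 15 neighbours, resolution 1), with the 39 genes and the wider lists left out. Clusters were named from marker lists by a scoring written after the files were seen, and classes needed 50 cells per library. TMM factors came from edgeR 4.0.16, used for scaling alone. The ratio computation was tested on simulated data. Gene positions were looked up in GENCODE for that build.

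The 39 genes and the wider lists were chosen with earlier results of these data known. Every member may be named, and up to 4 called genes were named per wider list, largest first. Alternatives changed the scaling, the UMI minimum, the pseudocount, the weight of cells, the cell filters, the cell mix, the call limit and the clustering.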

Additional observations from a re-analysis of the deposited data

Results flagged for a closer look

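For 2 members the Selinexor and DMSO cells stood in opposite order in different cell classes, each past 1.5-fold with a counting interval on 1 side of 0. Ctsl had a log2 ratio of 1.09 in early neutrophil-like cells and -1.21 in macrophage-like cells. Sqstm1 had a log2 ratio of 0.89 in late neutrophil-like cells and -1.05 in cluster 11. Within the single late clusters Sqstm1 was not past 1.5-fold, at 0.52 (0.07 to 0.99) in cluster 0 and 0.26 (-0.17 to 0.71) in cluster 1. With 1 library per group the difference between classes was not tested. The macrophage-like class had 47 Selinexor cells, and cluster 11 had 46 DMSO cells, so both opposite values rest on few cells.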

How the results depend on the processing

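The count of members called higher was 6, against 9.83% of all measured genes. It became 10 against 13.1% with cells weighted equally, and 11 against 18.5% after thinning to 1000 UMIs. Without cells holding Mki67 or Top2a it was 11 against 15.5%. With the same cell mix in both libraries 4 were higher (Tfeb, Rragd, Ctsd and Neu1), 1 was lower (Lipa) and the median was 0.22, and Atp6v0d2 turned to -0.0097. At that mix 8.99% of all measured genes were higher and 6.48% lower. Without the 6 clusters of very unequal share, an alternative chosen after seeing the data as were the 40-cell classes and the single late clusters, 4 were higher (Fnip2, Ctsd, Psap and Gabarapl1) with a median of 0.28. Of the 9554 genes measured there, 6.52% were higher and 4.30% lower. At a 2-fold limit 4 members were called higher (Rragd, Ctsd, Psap and Atp6v0d2) and 0 lower, against 2.05% and 1.13% of all 10393 genes. Of 621 values of single members under alternatives, 466 stayed within the counting interval and 155 left it. Over these alternatives 10 members had values on both sides of 0, and 1 of the 10, Atp6v0d2, was called higher in all kept cells; the cause was not tested. After thinning within classes, early neutrophil-like cells had 12 members higher and 8 lower, intermediate ones 7 and 8, and cluster 4 had 13 and 4. Of all genes measured there, thinning called 25.9% higher and 37.1% lower in early cells, 23.6% and 25.7% in intermediate cells, and 25% and 25.2% in cluster 4. The count of all genes called moved as well. It was 1022 higher and 403 lower, against 624 and 647 with TMM scaling, 598 and 672 with the median of ratios, 1921 and 1082 after thinning, 1336 and 357 (15.5% and 4.15% of 8608 genes) once cells with Mki67 or Top2a were dropped, 1360 and 656 with cells weighted equally, 934 and 673 at equal cell mix, 623 and 411 when the unequal clusters were left out, 472 and 226 at a pseudocount of 5 CPM, and 657 and 262 at a minimum of 200 UMIs. The share higher among called genes was 71.7%, and 49.1% with TMM and 47.1% with the median of ratios. No paired analysis was possible because each group holds 1 library. Depth limits low genes such as Rragd, whose DMSO level rests on 6 UMIs.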
